A study of Mus musculus with 8 samples.

Results

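The 5 Usp17l copies (Usp17la, Usp17lb, Usp17lc, Usp17ld and Usp17le) and 5 Eif1a-like copies (Gm8300, Gm5662, Gm2022, Gm4027 and Gm2016) were taken by their symbols from a table of RPKM values, 10 genes of 50903 in all. They were chosen by their higher RPKM in ESC + F/H-BAZ2Ar ΔTAM than in ESC + F/H-BAZ2Ar WT in these same libraries, so that difference is given as a description and not as a test. Both lines are E14 mouse ESCs, kept in N2B27 medium with LIF and 2i, in which a Flag- and HA-tagged BAZ2A transgene that the siRNA does not target was inserted with PiggyBac transposase. In ESC + F/H-BAZ2Ar WT the transgene encodes the whole protein, and in ESC + F/H-BAZ2Ar ΔTAM it lacks the TAM domain, a part of BAZ2A that binds RNA. All cells of both lines were transfected with siRNA against Baz2a and collected after 3 days. The lines came from single-cell clones, so the TAM deletion and the clone cannot be told apart. Whether the 4 libraries of a line are separate cultures is not stated, and p-values measure the spread between these libraries.

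BAZ2A is a subunit of the chromatin remodeler NoRC. Usp17l genes encode deubiquitinating enzymes, proteases that remove ubiquitin from proteins, and Usp17la, Usp17lb, Usp17lc, Usp17ld and Usp17le carry the older names Dub1, Dub1a, Dub2, Dub2a and Dub3. Eif1a-like genes resemble Eif1a and Eif1ax, which encode the translation initiation factor eIF1A, a protein that binds the small ribosomal subunit and helps it to find the start codon. Copies of both families are known as genes of the 2-cell embryo. Their transcripts also mark 2-cell-like cells, a rare and passing state of cultured mouse ESCs in which the factor Dux and genes such as Zscan4 are active.

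Each copy is a gene of its own in an array of near-identical neighbours. In GRCm38 (mm10), the build of the deposited coordinates, the Usp17l copies lie on chromosome 7. Usp17ld (103249737 to 103252505, minus strand) and Usp17lc (103415072 to 103419880, plus strand) stand apart from Usp17le (104768049 to 104777470, minus strand), Usp17lb (104840257 to 104842603, minus strand) and Usp17la (104857009 to 104862667, plus strand). The Eif1a-like copies lie on chromosome 12, with Gm8300 (87514316 to 87518266), Gm4027 (87618869 to 87622955), Gm2016 (87874072 to 87877859) and Gm2022 (87895370 to 87895804) on the plus strand and Gm5662 (88270640 to 88274500) on the minus strand. All 10 are annotated as protein-coding. Gm2022 is annotated as its coding stretch alone, 435 bases of exon, where the other 4 Eif1a-like copies have between 1766 and 1873.

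The coding sequences of the 5 Eif1a-like copies are 432 bases long and between 97.2% and 99.1% identical to each other, and 83.6% to 85.0% identical to Eif1ax. Of the eIF1A genes outside the array Eif1a is closer, 95.1% identical to Gm8300 in the BLAST match. They differ at 16 positions in all. The stretch from base 262 to base 381 of the coding sequence is printed because it holds 8 of these, the most of any stretch of 120 bases that lies in 1 exon in each copy. Capitals mark the positions at which the 5 copies differ from each other, and in Eif1ax the 16 bases that differ from all of them.
Gm8300 (chr12:87517158-87517277, plus strand): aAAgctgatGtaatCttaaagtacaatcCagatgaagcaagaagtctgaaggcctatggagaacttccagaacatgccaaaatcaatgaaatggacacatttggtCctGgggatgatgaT
Gm5662 (chr12:88271608-88271727, minus strand): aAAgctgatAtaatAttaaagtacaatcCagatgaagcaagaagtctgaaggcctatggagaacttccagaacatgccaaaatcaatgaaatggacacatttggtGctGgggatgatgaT
Gm2022 (chr12:87895631-87895750, plus strand): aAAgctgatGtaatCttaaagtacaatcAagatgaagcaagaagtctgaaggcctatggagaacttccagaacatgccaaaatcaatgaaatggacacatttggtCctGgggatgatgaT
Gm4027 (chr12:87621861-87621980, plus strand): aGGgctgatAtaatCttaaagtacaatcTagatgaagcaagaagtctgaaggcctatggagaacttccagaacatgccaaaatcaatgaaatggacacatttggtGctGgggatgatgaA
Gm2016 (chr12:87876846-87876965, plus strand): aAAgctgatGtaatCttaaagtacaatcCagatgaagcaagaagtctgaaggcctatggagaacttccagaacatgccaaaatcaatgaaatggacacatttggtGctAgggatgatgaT
Eif1ax: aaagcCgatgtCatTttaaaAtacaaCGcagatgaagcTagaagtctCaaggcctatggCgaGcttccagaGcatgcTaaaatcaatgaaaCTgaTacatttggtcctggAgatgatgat
Gm8300 and Gm2022 differ at 1 position of this stretch and Gm8300 and Gm4027 at 6, so a read of 100 bases inside it can be assigned by a few bases only.

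The Usp17l copies are less alike. Their coding sequences run from 1404 bases in Usp17lb to 1635 in Usp17lc and Usp17ld, and pairs are between 90.6% and 98.4% identical, with Usp17lc and Usp17ld the closest. RefSeq promoters of GRCm38.p6, from 250 bases before to 50 after the start, were at hand for 5 of the 10 genes, 4 of them Usp17l. The windows of 150 bases below lie around the longest string that the 4 promoters share, which is 29 bases long. They are shown to compare the RefSeq starts of genes that were higher in ESC + F/H-BAZ2Ar ΔTAM. The window of Usp17lc lies inside the annotated gene given above, and those of Usp17la, Usp17lb and Usp17ld lie before theirs. Capitals mark the 29 positions at which the windows differ.
Usp17la (chr7:104856830-104856979, plus strand): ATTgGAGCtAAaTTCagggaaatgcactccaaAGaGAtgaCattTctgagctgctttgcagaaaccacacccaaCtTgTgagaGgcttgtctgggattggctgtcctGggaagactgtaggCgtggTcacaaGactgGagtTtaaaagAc
Usp17lb (chr7:104842605-104842754, minus strand): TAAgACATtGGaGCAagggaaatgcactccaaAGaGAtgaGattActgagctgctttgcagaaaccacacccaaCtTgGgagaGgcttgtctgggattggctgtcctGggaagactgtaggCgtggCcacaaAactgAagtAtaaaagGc
Usp17lc (chr7:103416468-103416617, plus strand): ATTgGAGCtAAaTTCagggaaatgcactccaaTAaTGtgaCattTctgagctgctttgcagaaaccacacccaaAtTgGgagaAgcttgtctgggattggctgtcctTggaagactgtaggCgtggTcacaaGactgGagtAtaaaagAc
Usp17ld (chr7:103252606-103252755, minus strand): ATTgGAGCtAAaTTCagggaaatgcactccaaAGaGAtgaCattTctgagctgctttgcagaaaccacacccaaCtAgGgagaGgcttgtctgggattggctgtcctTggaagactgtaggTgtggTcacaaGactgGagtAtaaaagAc
Compared position by position without gaps, the window of Usp17la differs from that of Usp17ld at 5 positions, from Usp17lc at 9 and from Usp17lb at 20. Of the 20, 12 are among the first 15 bases, where Usp17lb holds the first 8 bases of the Usp17la window 6 positions later, so these capitals mark an offset. The letters TATAAA, read on either strand, are in the promoters of Usp17lb, Usp17lc and Usp17ld and not in that of Usp17la or Gm4027, and 13.6% of all 32851 promoters hold them. The letters CCAAT are in all 5, against 37.4% of promoters. The promoter of Gm4027, the 1 Eif1a-like copy with a RefSeq promoter at hand, is shown whole for comparison.
Gm4027 (chr12:87618659-87618958, plus strand): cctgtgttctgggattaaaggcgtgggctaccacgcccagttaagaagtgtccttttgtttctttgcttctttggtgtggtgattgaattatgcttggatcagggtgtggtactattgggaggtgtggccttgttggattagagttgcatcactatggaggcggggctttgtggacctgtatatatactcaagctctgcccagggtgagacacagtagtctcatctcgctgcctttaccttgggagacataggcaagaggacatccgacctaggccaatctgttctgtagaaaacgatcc

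RNA-seq gave between 6566154 and 8669775 reads on genes per library. The authors deposited RPKM, here per kilobase of genomic span of the gene, and the values multiplied by that span came in whole steps. Each step was taken as 1 read. The total behind the deposited RPKM would then be 43808500 to 58081000 per library, of which the reads on genes are 14.8% to 15.0%, and the sources used here do not account for the rest. Intervals below hold only if a step is 1 read, and levels are given as RPM, the reads of a gene scaled to the reads on genes of its library. In RPM, 1 read is 0.115 to 0.152. Baz2a, the target of the siRNA and the gene of the transgene, had 18661 to 21787 reads in ESC + F/H-BAZ2Ar WT and 29074 to 41406 in ESC + F/H-BAZ2Ar ΔTAM, a log2 fold change of 0.79 (SE 0.046, adjusted p = 3.4e-05 from limma), and these reads do not separate the transgene from the endogenous gene. Of 6 ESC markers, such as Pou5f1 and Nanog, Sox2 and Esrrb were lower with limma and 4 were not called, beside 16.0% of 9003 genes called lower. With quantile normalization 3 markers were lower, beside 1724 of the 9003 genes. The summed level of the 6 markers was 4790 to 4830 RPM in ESC + F/H-BAZ2Ar WT and 4410 to 4600 in ESC + F/H-BAZ2Ar ΔTAM. The summed level of 6 primitive endoderm markers was 6.14 to 7.57 against 8.76 to 10.6 RPM. Within that list Gata4 had 28 to 34 and then 39 to 43 reads, Dab2 0 to 3 and then 4 to 10, and Gata6 5 to 10 and then 2 to 7. With limma voom Dab2 was called higher, having reached an average of 3 reads only through ESC + F/H-BAZ2Ar ΔTAM, and Gata4 and Gata6 were not called. Sox7 had 0 to 5 reads in any library. Sets of 6 markers each of trophoblast, primed or germ layer and fibroblast cells summed to 80.0 to 82.0, 41.9 to 44.5 and 24.3 to 28.2 RPM in ESC + F/H-BAZ2Ar WT and to 80.7 to 95.3, 30.4 to 40.5 and 23.5 to 31.2 in ESC + F/H-BAZ2Ar ΔTAM. Most of each sum came from 1 gene, Tfap2c, T and Pdgfrb. With limma voom, beside 19.2% of 15104 genes called higher and 18.9% lower, Cdx2 and Tfap2c were higher and Eomes and Krt8 lower of 4 trophoblast markers fitted, Sox1 and Otx2 were lower of 5 primed or germ layer markers, and Col1a2 was higher of 3 fibroblast markers. Otx2 reached 3 reads on average only through ESC + F/H-BAZ2Ar WT, with 33 reads there and 6 in ESC + F/H-BAZ2Ar ΔTAM. Fgf5, Col3a1 and Dcn were at 0 in all 8 libraries. The part of these markers in the results below was not tested.

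All 10 copies had few reads in ESC + F/H-BAZ2Ar WT and more in each ESC + F/H-BAZ2Ar ΔTAM library. For each of them, the lowest RPKM of ESC + F/H-BAZ2Ar ΔTAM was above the highest of ESC + F/H-BAZ2Ar WT, a pattern shown by 17.1% of the 15104 genes that averaged 3 reads or more. Since this contrast chose the copies, nothing is read from that count. In bulk RNA, more cells that express a gene and more RNA per cell cannot be told apart.

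**Figure D1:**
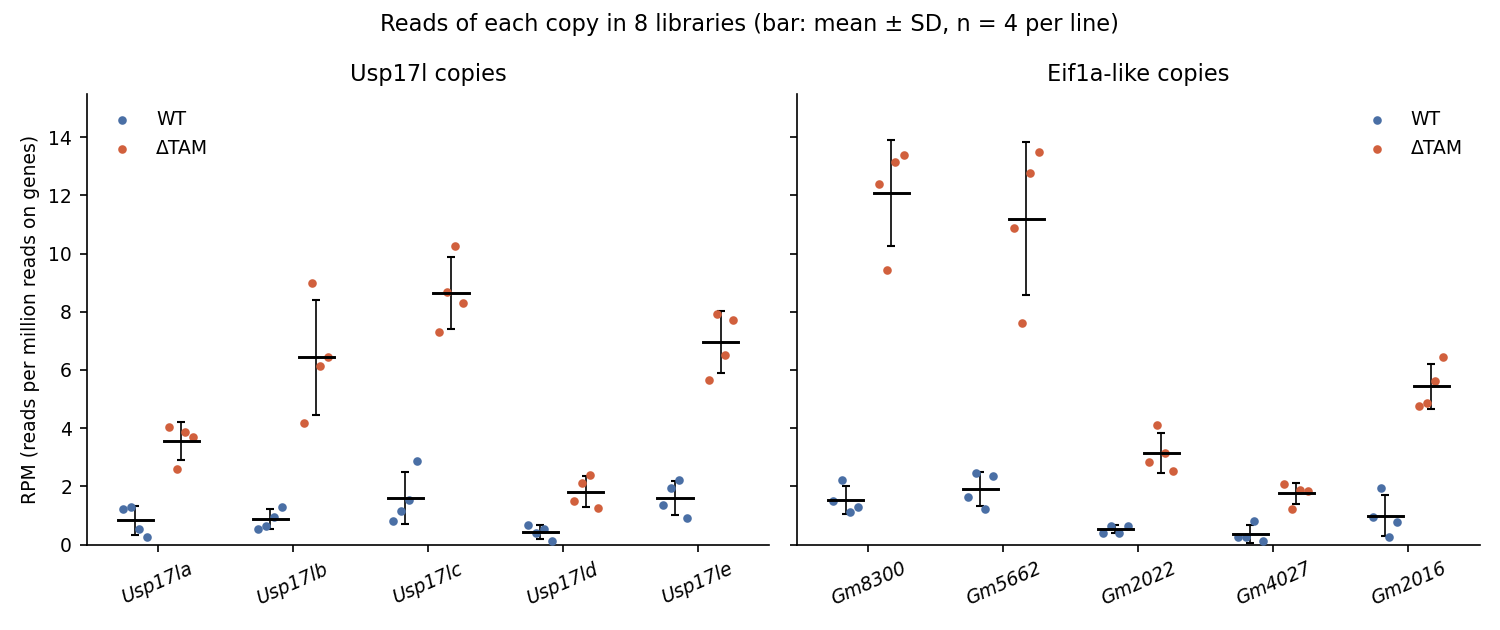
RPM, scaled to the reads on genes (vertical axis), of the 5 Usp17l copies (left) and the 5 Eif1a-like copies (right). Each point is a library of ESC + F/H-BAZ2Ar WT (blue) or ΔTAM (red), and bars give the mean and SD of 4 libraries. No copy has a ΔTAM library at or below a WT library, and Gm8300 and Gm5662 reach the highest levels.

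Among the Usp17l copies, Usp17lc had the most reads. It had 6, 9, 11 and 22 reads in the 4 libraries of ESC + F/H-BAZ2Ar WT and 49, 57, 82 and 72 in those of ESC + F/H-BAZ2Ar ΔTAM. Its level was 1.59 ± 0.902 RPM (SD, n = 4) against 8.64 ± 1.23 (SD, n = 4), a ratio of 5.43, and the ESC + F/H-BAZ2Ar WT library with 22 reads stands above the other 3 of its line. Usp17le had 10, 15, 16 and 7 reads in ESC + F/H-BAZ2Ar WT and 38, 52, 52 and 67 in ESC + F/H-BAZ2Ar ΔTAM, from 1.61 ± 0.583 to 6.96 ± 1.06 RPM (SD, n = 4) and a ratio of 4.33. The 2 lines are separate, with the highest ESC + F/H-BAZ2Ar WT library at 16 reads and the lowest ESC + F/H-BAZ2Ar ΔTAM library at 38.

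Usp17lb showed the highest ratio of its family. It had 4, 5, 7 and 10 reads in ESC + F/H-BAZ2Ar WT and 28, 59, 49 and 56 in ESC + F/H-BAZ2Ar ΔTAM, or 0.865 ± 0.345 against 6.44 ± 1.97 RPM (SD, n = 4), a ratio of 7.44. The exact 95% interval of that ratio from the summed reads, which covers counting error only, is 4.90 to 11.6. It overlaps the intervals of the other 4 copies, the lowest of which, that of Usp17ld, is 2.24 to 8.32. Such overlap is no test of a difference between copies, and none was made, so no order of the copies by their ratio is given.

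Usp17la and Usp17ld were the low copies. Usp17la had 9, 10, 4 and 2 reads in ESC + F/H-BAZ2Ar WT and 27, 17, 31 and 32 in ESC + F/H-BAZ2Ar ΔTAM, a ratio of 4.26. Usp17ld, the close relative of Usp17lc, had 5, 3, 4 and 1 reads and then 10, 14, 19 and 11, a ratio of 4.16. In both, the gap between the lines was small in reads, with 10 against 17 for Usp17la and 5 against 10 for Usp17ld at the nearest libraries.

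Of the Eif1a-like copies, Gm8300 and Gm5662 had the most reads. Gm8300 had 11, 17, 8 and 10 reads in ESC + F/H-BAZ2Ar WT and 83, 62, 105 and 116 in ESC + F/H-BAZ2Ar ΔTAM, from 1.53 ± 0.482 to 12.1 ± 1.81 RPM (SD, n = 4). Its ratio of 7.92, with an exact 95% interval of 5.86 to 11.1, was the highest value of all 10 copies, although this interval overlaps those of the other 9. Its lowest ESC + F/H-BAZ2Ar ΔTAM library was 4.29 times its highest ESC + F/H-BAZ2Ar WT library in RPKM. Gm5662 had 12, 19, 9 and 18 reads and then 73, 50, 102 and 117, from 1.92 ± 0.589 to 11.2 ± 2.63 RPM (SD, n = 4) and a ratio of 5.83. Replicate 2 was the lowest library of ESC + F/H-BAZ2Ar ΔTAM for both.

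Gm2016 had 7, 15, 2 and 6 reads in ESC + F/H-BAZ2Ar WT and 32, 32, 45 and 56 in ESC + F/H-BAZ2Ar ΔTAM, a ratio of 5.50. Gm2022 had 3, 5, 3 and 5 reads and then 19, 27, 25 and 22, a ratio of 5.94. Gm4027 had the fewest reads of all 10 copies. It had 2, 2, 6 and 1 reads in ESC + F/H-BAZ2Ar WT and 14, 8, 15 and 16 in ESC + F/H-BAZ2Ar ΔTAM, a ratio of 4.73 whose exact 95% interval is 2.49 to 10.3, and its nearest libraries were at 6 and 8 reads.

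The levels of different copies were compared per kilobase of exon. In ESC + F/H-BAZ2Ar ΔTAM the order was Gm2022 (7.25 ± 1.57 RPM per kilobase of exon, SD, n = 4), Gm8300 (6.45 ± 0.969), Gm5662 (6.08 ± 1.43), Usp17lb (4.12 ± 1.26), Usp17lc (3.52 ± 0.501), Usp17le (3.5 ± 0.534), Gm2016 (3.08 ± 0.444), Usp17la (1.34 ± 0.246), Gm4027 (0.950 ± 0.203) and Usp17ld (0.915 ± 0.263). The first 7 fell in a run in which each copy overlaps the next over the 4 libraries. Usp17la, at 0.975 to 1.52, did not overlap Gm2016, at 2.7 to 3.66, and the last 3 overlap each other. The position of Gm2022 rests on an annotation of its coding stretch alone, so reads outside that stretch are in neither its count nor its length.

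Summed over the family, the Usp17l copies had 34, 42, 42 and 42 reads in ESC + F/H-BAZ2Ar WT and 152, 199, 233 and 238 in ESC + F/H-BAZ2Ar ΔTAM. The summed level went from 5.33 ± 0.515 to 27.4 ± 3.36 RPM (SD, n = 4), a ratio of 5.14. The Eif1a-like copies had 35, 58, 28 and 40 reads and then 221, 179, 292 and 327. Their summed level went from 5.34 ± 1.57 to 33.6 ± 4.70 RPM (SD, n = 4), a ratio of 6.30. The 2 families were thus at nearly the same summed level in ESC + F/H-BAZ2Ar WT, and the Usp17l sum divided by the Eif1a-like sum was 1.06 ± 0.320 there and 0.831 ± 0.190 in ESC + F/H-BAZ2Ar ΔTAM (SD, n = 4), with libraries of the lines overlapping. For comparison, the 9 Zscan4 genes and pseudogenes of these libraries, which mark the same 2-cell-like state, summed to 13.5 ± 2.39 and 71.7 ± 4.80 RPM (SD, n = 4), a ratio of 5.32. With line means removed, the log2 sums showed little correlation over the 8 libraries. There r was -0.086 for Usp17l and Eif1a-like, 0.058 for Usp17l and Zscan4, and -0.015 for Eif1a-like and Zscan4. The sums in ESC + F/H-BAZ2Ar WT rest on few reads, so these r are a description.

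Within a family, the shares of the copies overlapped between the lines for 9 of the 10. Usp17lc gave 29.4% ± 15.7 of the Usp17l reads in ESC + F/H-BAZ2Ar WT and 31.6% ± 2.82 in ESC + F/H-BAZ2Ar ΔTAM (SD, n = 4), and Usp17le 30.0% ± 9.60 and 25.4% ± 2.43. Gm5662 gave 36.0% ± 6.04 and 32.9% ± 3.52 of the Eif1a-like reads. Gm8300 gave 28.6% ± 2.67 and 35.9% ± 1.23, and here the libraries did not overlap, with 25% to 31.4% in ESC + F/H-BAZ2Ar WT and 34.6% to 37.6% in ESC + F/H-BAZ2Ar ΔTAM. The Wilson 95% intervals of the pooled shares of Gm8300, 22.2% to 36.0% of 161 reads and 33.0% to 38.9% of 1019 reads, do overlap. These intervals pool the 4 libraries of a line and cover counting error only, not the spread between libraries. The share in ESC + F/H-BAZ2Ar WT rests on 28 to 58 reads per library.

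**Figure D2:**
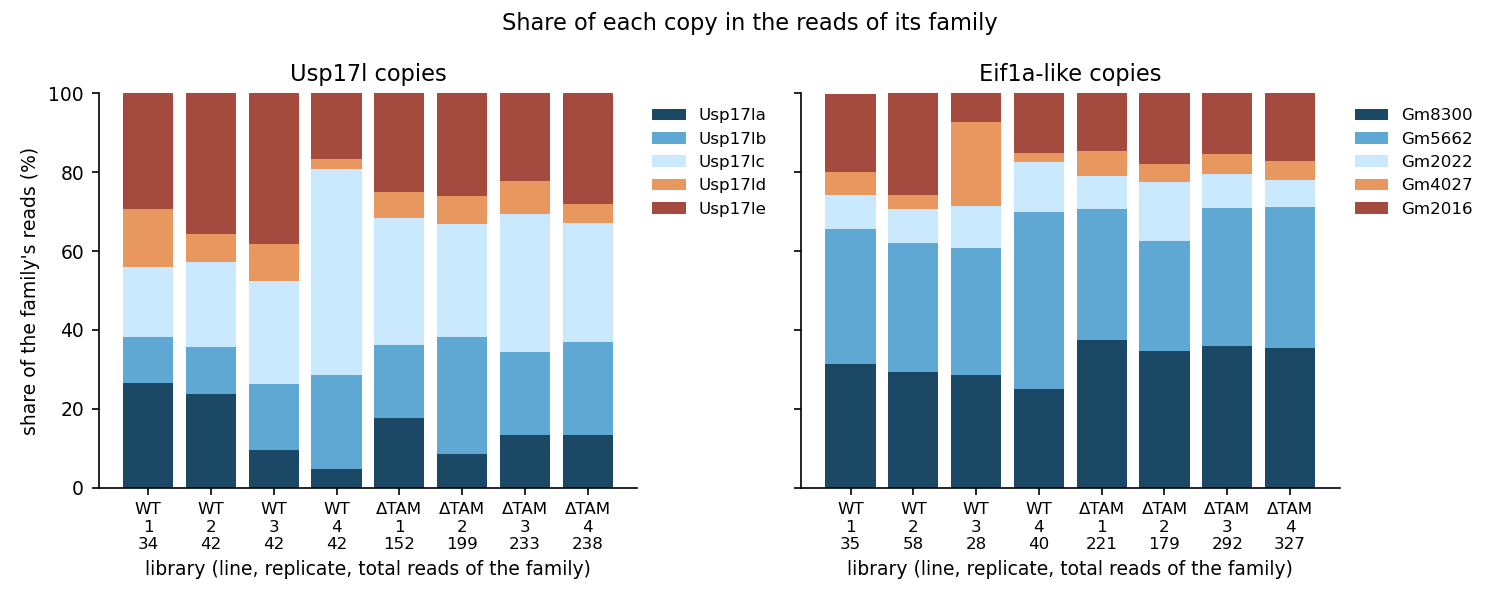
Share of each copy in the reads of its family (vertical axis, percent) in each of 8 libraries, with the family's total reads under each bar. For 9 of the 10 copies, all but Gm2022, the SD of the share is larger among the WT libraries, which hold 28 to 58 reads of a family, than among the ΔTAM libraries, which hold 152 to 327.

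On the scale of log2(RPKM + 0.1), 6 of the 10 copies had a mean of at least 0.1 RPKM and entered the fit with limma over 9003 genes. They passed that filter mostly through ESC + F/H-BAZ2Ar ΔTAM, where their mean RPKM was 0.214 to 1.08, against 0.0389 to 0.182 in ESC + F/H-BAZ2Ar WT. Their log2 fold changes were 2.07 (SE 0.17) for Gm2022, 1.82 for Gm8300, 1.70 for Usp17lb, 1.60 for Gm5662, 1.32 for Usp17lc and 1.19 for Gm2016. All 6 were called higher, beside 19.9% of all genes tested (and 16.0% lower), and nothing is read from this since the contrast chose them. Over all genes these shares are 1792 higher and 1437 lower, which turned to 1571 and 1724 with quantile normalization. Usp17la, Usp17ld, Usp17le and Gm4027 were under the filter. Without it all 10 were called higher, beside 7.63% of 25440 genes higher and 7.15% lower, and again nothing is read from this. The pseudocount shrinks these values, and on recovered reads with limma voom, where all 10 copies were fitted, the log2 fold changes ran from 2.02 (SE 0.45) for Usp17ld to 2.98 (SE 0.26) for Gm8300.

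The table holds 9 more copies of the Eif1a-like array, which are not among the 10 chosen genes. They were examined because their neighbours were higher, and they share sequence with them, so their tests are not independent of that choice. Gm5039, which lies beyond Gm5662, had 13, 16, 15 and 27 reads in ESC + F/H-BAZ2Ar WT and 74, 89, 116 and 112 in ESC + F/H-BAZ2Ar ΔTAM. Its 391 reads over the ΔTAM libraries were more than the 366 of Gm8300. Its log2 fold change with limma voom was 2.48 (SE 0.21, adjusted p = 2.66e-09). On the log2(RPKM + 0.1) scale it was 1.66 (SE 0.12), where Gm5039 passed the filter only through ESC + F/H-BAZ2Ar ΔTAM (0.0899 and 0.498 RPKM). Gm8332 had 5, 1, 1 and 2 reads and then 14, 19, 20 and 21, a log2 fold change of 2.31 on that scale (SE 0.26, adjusted p = 0.000504 from limma). Gm2035 had 2, 3, 4 and 6 reads and then 6, 7, 13 and 14 (1.03, adjusted p = 0.0126 from limma). Gm2056 had at most 1 read in a library of ESC + F/H-BAZ2Ar WT and between 2 and 7 in ESC + F/H-BAZ2Ar ΔTAM, and Gm21936 had 3 and 16 reads in all. Both passed the filter only through ESC + F/H-BAZ2Ar ΔTAM, so their tests are not given. Gm21319, Gm2075, Gm6803 and BB287469 had 5 reads or fewer over all 8 libraries and were under the filter, so no test is given for them. The 9 copies summed to 3.39 ± 0.967 and 18.2 ± 2.16 RPM (SD, n = 4), a ratio of 5.37. Gm5788, Gm16368, Gm8607 and Gm10264 are further annotated copies on chromosome 12. They have no values under these symbols here and are in no sum.

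**Figure D3:**
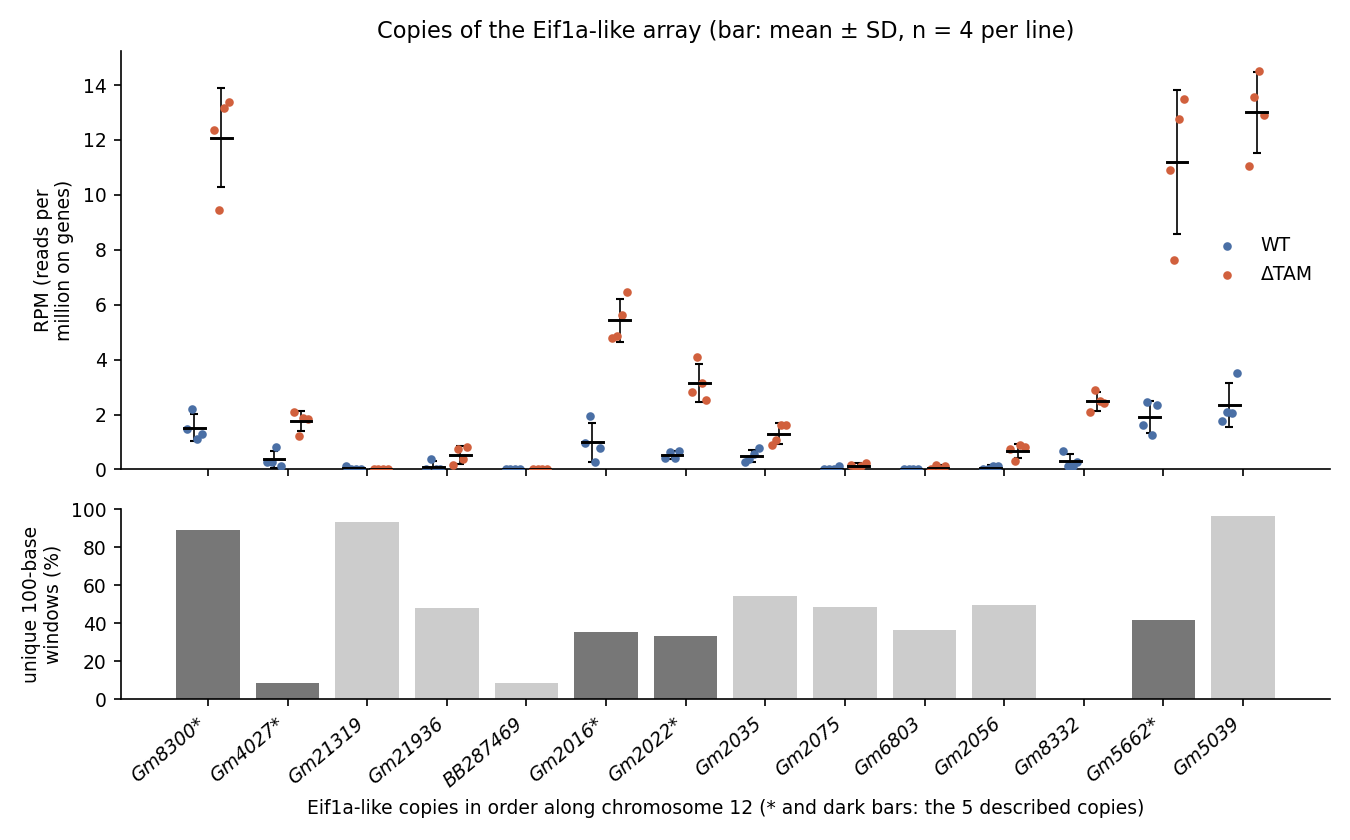
Top, RPM of the 14 Eif1a-like copies of chromosome 12 in the table, in their order along the chromosome, with each library as a point (blue WT, red ΔTAM) and the mean and SD of 4 libraries. Bottom, percent of 100-base windows of each copy's transcripts found in no other gene. Gm5039 and Gm8300, with 96.2% and 89.2% unique windows, are both among the highest copies, and Gm21319, with 93.5%, is near 0.

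How far reads can be assigned to a copy was measured by the windows of 100 bases, taken as the read length, of its transcripts that occur in no other annotated gene. They made up 89.2% of windows in Gm8300, 96.2% in Usp17la, 91.8% in Usp17le, 89.7% in Usp17lb, 67.7% in Usp17lc and 60.5% in Usp17ld. In Gm5662 they were 41.6%, in Gm2016 35.3%, in Gm2022 33.3% and in Gm4027 8.6%. The 4 copies with over 89% unique windows had ratios of 4.26 (Usp17la), 4.33 (Usp17le), 7.44 (Usp17lb) and 7.92 (Gm8300). Since this contrast chose the copies, these ratios are a description. Which copy the other reads came from is uncertain. BB287469, whose coding sequence is identical to that of Gm4027 and whose unique windows are 8.7%, had no read in any library, while Gm8332 had 83 reads with no unique window. How multi-mapping reads were counted is not given in the sources used here.

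Among the copies of chromosome 12 or beside them lie 2 genes without a match to the coding sequences. AC126554.1 (87496093 to 87496363), which lies before Gm8300, had 22 reads in ESC + F/H-BAZ2Ar WT and 113 in ESC + F/H-BAZ2Ar ΔTAM, a log2 fold change of 2.22 on the log2(RPKM + 0.1) scale (SE 0.30, adjusted p = 0.0011 from limma). AC211878.2 (87808537 to 87809024), which lies between Gm4027 and Gm2016, had 39 and 212 reads, a log2 fold change of 2.16 on that scale (SE 0.11, adjusted p = 2.4e-05 from limma). Both were singled out after their values were seen. Gm5788 (87494721 to 87495155), an annotated Eif1a-like copy without values here, also lies before AC126554.1. On chromosome 7, the pseudogene Usp17le-ps had no read in any library, and Gm5053, a processed pseudogene 92.3% identical to Usp17lb, had none in ESC + F/H-BAZ2Ar WT and 4 in ESC + F/H-BAZ2Ar ΔTAM.

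Genes around the arrays without a match to the coding sequences, up to 500 kb beyond the outermost of the 10 copies, were counted with limma voom. Only coding sequences were searched, so untranslated parts of a copy would not be matched. Over all 15104 genes fitted, 19.2% were called higher and 18.9% lower. On chromosome 12, 16 of 55 such genes averaged 3 reads or more. Of these 7 were higher and 1 was lower, with a median log2 fold change of 0.08. The highest were AC126554.1 at 2.41 and AC211878.2 at 2.39, and the next was Gm7104 at 1.55. On chromosome 7, 176 of 195 such genes had no read in any library. Of the 4 that averaged 3 reads or more, 2 were called higher, Trim6 at 0.26 and Trim12c at 0.52. The genes named here were picked after their values were seen.

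The eIF1 and eIF1A genes outside the arrays had smaller fold changes. Eif1a had 1522 to 1615 reads in ESC + F/H-BAZ2Ar WT and 1479 to 2075 in ESC + F/H-BAZ2Ar ΔTAM, a log2 fold change of 0.16 on the log2(RPKM + 0.1) scale (SE 0.037, adjusted p = 0.0108 from limma). Eif1ax (-0.10, adjusted p = 0.163), Eif1 (-0.07, adjusted p = 0.212), Eif1b (-0.06, adjusted p = 0.645) and Eif1ad (-0.0044, adjusted p = 0.945) were not called by limma. Eif1 and Eif1b encode eIF1, which acts with eIF1A in start codon selection. Of 28 other ubiquitin-specific proteases tested, 7 were higher and 6 were lower, beside 19.9% and 16.0% of all genes tested, with a median log2 fold change of 0.0016 against 0.01 for all genes tested. With quantile normalization 5 were higher and 8 were lower, and Eif1 was called lower (-0.07, adjusted p = 0.043 from limma).

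Other genes of 2-cell-like cells were also higher in ESC + F/H-BAZ2Ar ΔTAM. Of 32 on the list, 31 were in the table, 6 had no read and 14 were tested on log2(RPKM + 0.1). All 14 were called higher, with a median log2 fold change of 1.31 against 0.01 over all genes tested, of which 19.9% were called higher. The list was drawn up with these results known, and low genes pass the filter through the line in which they are high, so the count does not give independent evidence. AF067061 had 5, 4, 1 and 2 reads and then 20, 28, 46 and 50, a log2 fold change of 2.06 (SE 0.20). Tcstv3 had 5 to 7 and 26 to 38 reads, a log2 fold change of 1.65 (SE 0.059). Zscan4a (1.73), Zscan4d (1.50) and Gm12794 (1.41) completed the 5 largest. Of these 5, only Zscan4a averaged 0.1 RPKM or more in ESC + F/H-BAZ2Ar WT, so no p is given for them. With limma voom on the reads, where the same limit holds, 25 of 25 were called higher, where 19.2% of 15104 genes were, and the median log2 fold change of 2.45 lay beside 2.23 for the 5 Usp17l copies and 2.55 for the 5 Eif1a-like copies.

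The regulators of the 2-cell genes that passed the filter had fold changes under those of the 2-cell genes named above. Of 5 activators tested, Dppa2, a chromatin protein that acts upstream of Dux, was higher (0.37, SE 0.083, adjusted p = 0.0114 from limma), and so was Nelfa (0.13, adjusted p = 0.0272 from limma). Dppa4, the partner of Dppa2 (-0.12, adjusted p = 0.0251 from limma) and Nr5a2, a nuclear receptor gene (-0.21, SE 0.042) were lower, and Smarca5 was not called (0.03, adjusted p = 0.636 from limma). Nr5a2 passed the filter only through ESC + F/H-BAZ2Ar WT (0.117 and 0.0885 RPKM), and with limma voom it was at -0.41 (SE 0.054, adjusted p = 1.48e-06). Duxf3, a Dux family gene, was under the filter, with 0, 1, 1 and 2 reads in ESC + F/H-BAZ2Ar WT and 1, 6, 7 and 6 in ESC + F/H-BAZ2Ar ΔTAM. These are 4 and 20 reads in all, and libraries of the lines overlap. It averaged 3 reads only through ESC + F/H-BAZ2Ar ΔTAM, so no test is given. Gata2, also under the filter, was lower with limma voom (-1.40, SE 0.29, adjusted p = 0.000477), with 21 to 25 reads in ESC + F/H-BAZ2Ar WT and 6 to 10 in ESC + F/H-BAZ2Ar ΔTAM. Of 28 repressors tested, 9 were higher, 1 was lower and 18 were not called, beside 19.9% and 16.0% of all genes tested, with a median log2 fold change of 0.06. With quantile normalization 7 repressors were higher and 3 were lower, and activators and repressors together went from 11 higher and 3 lower to 9 and 5. The largest called changes of repressors were those of the deacetylase gene Hdac1 (0.30, SE 0.032, adjusted p = 0.000368 from limma), Max (0.24, adjusted p = 0.00751 from limma), which encodes the partner of Myc proteins, and the H3K9 methyltransferase gene Setdb1 (0.20, adjusted p = 0.00204 from limma). Of activators and repressors together, 1 was called lower without ESC + F/H-BAZ2Ar WT replicate 3, without WT replicate 4 or without ΔTAM replicate 4, against 3 with all libraries.

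**Figure D4:**
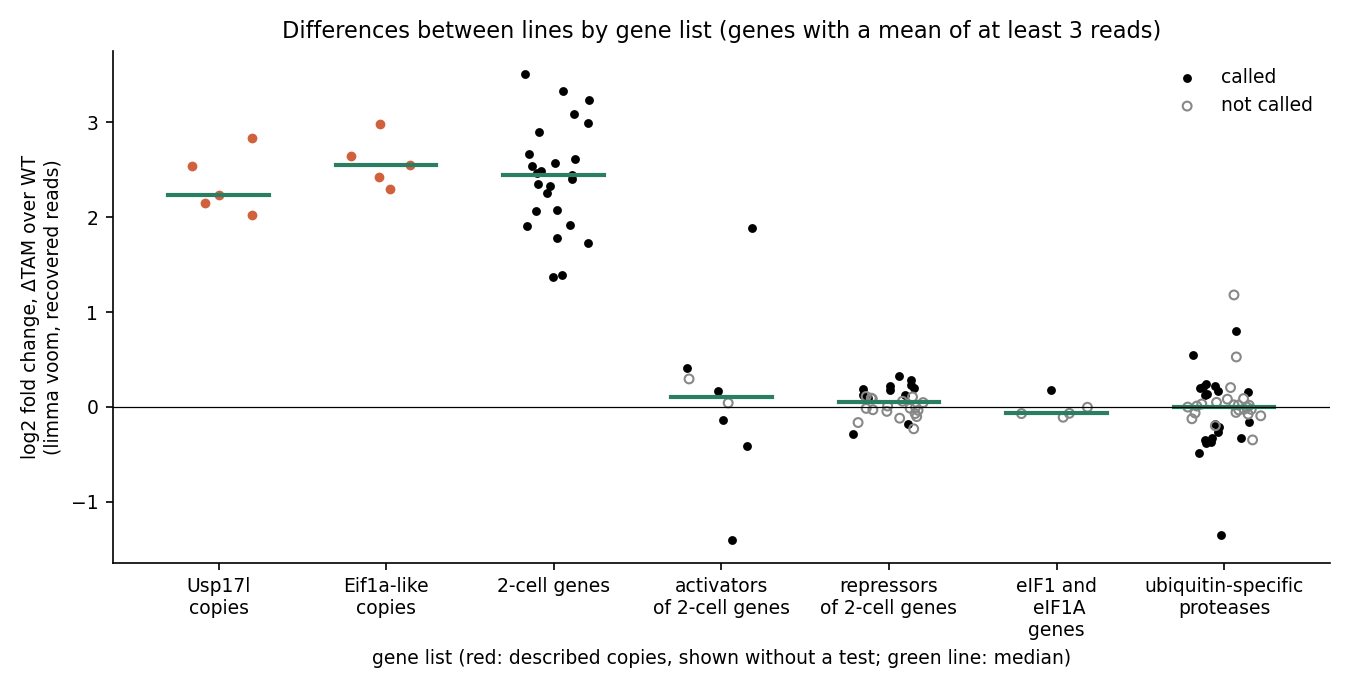
Log2 fold change of ESC + F/H-BAZ2Ar ΔTAM over WT from limma voom (vertical axis) for the genes of each list that averaged 3 reads or more, called (black) or not (open), with the median as a green line. The copies (red, shown without a test) lie between 2.02 and 2.98, the same range as many 2-cell genes, and the medians of the 4 lists to the right of the 2-cell genes lie between -0.07 and 0.11.

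The genes outside the arrays whose level was most like a family's sum were named by the correlation of log2 RPM over the 8 libraries, as a description. For the Usp17l sum they were Elf3 (r = 0.997), Anxa4 (0.997), Dnmt3b (0.996), Kirrel (0.996) and Zbtb8a (0.995). For the Eif1a-like sum they were Elf1 (0.996), Ripk1 (0.995), Rab15 (0.995), Grb10 (0.993) and Rgma (0.992). The 8 points fall into 2 lines, and any gene that separates the lines scores high, since 1209 and 1013 of 12648 genes had r over 0.9. None of the 10 is on the list of 2-cell genes, and their levels differed by less, with ratios of 1.48 (Rab15) to 2.08 (Anxa4).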

How the data were processed

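RNA of 8 libraries, 4 of ESC + F/H-BAZ2Ar WT and 4 of ESC + F/H-BAZ2Ar ΔTAM, was selected for poly(A) and sequenced. Per the submitters' processing notes, reads were handled with Trimmomatic 0.36 and STAR against mm10. Reads were taken as 100 bases from 1 end, although the paper's methods also name other layouts and lengths. The authors deposited RPKM per gene and library. Multiplied by gene span, 99.5% to 99.6% of the values above 0 were within 0.05 of whole steps, and each step was taken as 1 read. Of 51288 entries, 385 repeats were set aside. Whether counting used the strand or split reads between copies is not given in the sources used here.

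Differences were fitted with limma 3.58.1 (R 4.3.3, eBayes with trend) on log2(RPKM + 0.1) for genes averaging 0.1 RPKM or more, with Benjamini-Hochberg adjustment, and called at an adjusted p under 0.05. Alternatives were another pseudocount, filter or scaling, eBayes with no trend or robust, a replicate block, the omission of each library and limma voom on the reads. A fit with all repeated entries was added after seeing the data. Sums and ratios carry no test. Copies were found with BLAST 2.17.0 (at least 70% identity over 60% of a member's coding sequence). The fits were tested on simulated data. The genes named are the 10 copies, other copies of the arrays, the 5 largest called changes of the 2-cell and of the regulator lists, Baz2a, the eIF1 and eIF1A genes and the 5 genes most like each sum. The other activators, the markers and the other genes near the arrays named in the text were picked after their values were seen. Members and lists were chosen with earlier results of these data known.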

Additional observations from a re-analysis of the deposited data

Results flagged for a closer look

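In groups of 4, Dixon's test at 95% marked 7 of 100 groups in which a library stood apart. In 3 of these the other 3 libraries were at 0, which fixes the mark, and for the other 4 chance alone marks about 1 in 20 groups. Of the copies outside the 10 described, Gm21319 (0.135 RPM in ESC + F/H-BAZ2Ar WT replicate 1), Gm21936 (0.390 in ESC + F/H-BAZ2Ar WT replicate 2) and Gm2075 (0.131 in ESC + F/H-BAZ2Ar WT replicate 4) had reads in 1 library of the line and none in the other 3. The summed level of the 9 other Eif1a-like copies was 4.84 RPM in ESC + F/H-BAZ2Ar WT replicate 4, above 2.84 to 2.99 in the other 3, and still under the 15.1 to 20.0 of ESC + F/H-BAZ2Ar ΔTAM. Hdac1 was at 203 RPM in ESC + F/H-BAZ2Ar WT replicate 2, Nr5a2 at 63.3 in ESC + F/H-BAZ2Ar ΔTAM replicate 4 and Anxa4 at 38.3 in ESC + F/H-BAZ2Ar WT replicate 4. None of the 10 described copies and neither of their sums was marked in either line.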

How the results depend on the processing

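The log2 ratio of the summed level was 2.36 for the Usp17l copies and 2.66 for the Eif1a-like copies, and ran from 2.30 to 2.49 and from 2.50 to 2.87 over the alternatives, among them the sum of RPKM, median-ratio scaling and the sum without the copy with the most reads. With each library left out the ratios ran from 2.30 to 2.44 and from 2.53 to 2.87. The fold changes of the 6 fitted copies stayed above 0 and called in all 108 alternative fits, from which nothing is read, since this contrast chose them and 5 of the 6 averaged under 0.1 RPKM in ESC + F/H-BAZ2Ar WT. Their size moved, from 0.23 to 2.65 for Gm2016, 0.27 to 2.54 for Usp17lc, 0.41 to 2.55 for Gm5662, 0.41 to 2.83 for Usp17lb, 0.46 to 2.98 for Gm8300 and 0.81 to 2.52 for Gm2022. The lowest values are those with a pseudocount of 1 RPKM. The calls for all genes numbered 3229, 992 among genes averaging 1 RPKM or more, and 5540 and 5744 with limma voom at means of at least 10 and 3 reads, with other numbers of genes tested. Calls of 2-cell genes numbered 14 of 14, 23 of 25 without the filter and 25 of 25 with voom at 3 reads, and of the copies 6 of 6, 10 of 10 and 10 of 10, beside 19.9%, 7.63% and 19.2% of all genes called higher (without the filter, 1941 higher and 1818 lower of 25440). No member and no 2-cell gene averaged 1 RPKM or more. Of regulators 14 were called, and 6 among genes averaging 1 RPKM or more. With each library left out, the calls ran from 2620 to 3055 for all genes, 10 to 16 for 2-cell genes, 9 to 14 for regulators (9 without ESC + F/H-BAZ2Ar ΔTAM replicate 4) and 6 to 6 for members. Same-numbered libraries of the 2 lines deviated together only weakly (r = 0.024 to 0.062), and 6 of 8 libraries correlated best with their own number. Whether same-numbered libraries share a batch cannot be told from these values. The main fit used no pairing. With the replicate block 2798 genes were called, 1558 higher and 1240 lower, with 13 2-cell genes, 10 regulators and 6 members. Depth limits each copy to 1 to 22 reads per library in ESC + F/H-BAZ2Ar WT, and the intervals of the 10 copies' ratios all overlap. That overlap is no test of a difference between copies.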
